A study of Mus musculus with 7 samples.

Results

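Genes of glycolysis, lactate handling and the response to low oxygen were compared in cerebral cortex of mice at postnatal day 7. They are 35 genes, picked by symbol for what they are known to do, and they stand on 36 of the 56941 rows of the deposited table, because the symbol Aldoa is on 2 rows. The samples were 3 cortices labelled P213L and 4 labelled wild type (WT). P213L mice carry that variant of Hnrnph2, an X-linked gene for an RNA-binding protein of the heterogeneous nuclear ribonucleoprotein H family. The labels give no strain, zygosity or sex, and no treatment. Nor is it stated whether each sample is 1 animal, and the spread behind every p-value here may therefore be technical. The stated subject of the series is how oligodendrocytes mature and form myelin, so glycolysis and hypoxia lie beside its own question.

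Glycolysis breaks glucose down to pyruvate in the cytosol. Hexokinase traps glucose in the cell, phosphofructokinase sets the pace of the first part of the pathway, and pyruvate kinase closes it. Pyruvate then enters the mitochondrion through pyruvate dehydrogenase or is turned into lactate, which leaves and enters cells through monocarboxylate transporters. In brain, lactate passes between glia and neurons, and oligodendrocytes supply it to axons. When oxygen is short, the hypoxia-inducible factors (HIF) are no longer marked for destruction by prolyl hydroxylases. They then raise genes of glycolysis, of blood vessel growth and of mitochondrial turnover.

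Values are transcripts per 1000000 (TPM) as deposited, and fold changes are P213L over WT on the log2(TPM + 0.5) scale, where changes of genes near 0 TPM come out too small. A gene was tested if its mean over the 7 samples was at least 1 TPM, which 35 of the 36 rows passed. Car9, a carbonic anhydrase of hypoxic cells, did not. TPM carries no read total, and depth estimated from the steps between low values was 71.3 to 79.4 M counted units in P213L and 57.2 to 72.5 M in WT, with M for 1000000. WT replicate 3 stood apart from the other 6 libraries. Its correlations with them over the tested rows were 0.943 to 0.949, and it had 28367 rows above 0, against 31387 to 32526. Summed over 11 genes of cortical identity, the libraries held 1440.4 to 1581 TPM in P213L and 981 to 1629 TPM in WT, where WT replicate 3 was the lowest. Values without this library are given where it moved a fold change by over 1.5 times or turned its sign, and for the lists. In whole tissue, fewer cells of a type and less RNA per cell cannot be told apart.

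No member differed between P213L and WT past an adjusted p of 0.05. The smallest adjusted p of any member was 0.827 (limma, Benjamini-Hochberg over 17582 rows), and 0 members were past an unadjusted p of 0.05. Over all tested rows 0% passed the adjusted threshold and 3.74% the unadjusted one, 2.36% higher in P213L and 1.38% lower. When limma weighted the libraries by their spread, 3981 of the 17582 rows passed adjustment. Among the 35 tested member rows 9 did, which is a similar share. They were Gpi1, Pfkl, Pfkp and Pfkfb3 higher, and Slc16a1, Pdk3, Pdha1, Epas1 and Bnip3 lower. That fit gave WT replicate 3 a weight of 0.0431, against 6.90 for P213L replicate 3 and 5.24 for WT replicate 4. The standard errors of the members ran from 0.09 to 0.34 on the log2 scale. Together the 36 rows took 6782 to 7090 TPM in P213L and 6828 to 7203 TPM in WT, so the summed level of these genes overlapped between the groups. Of the 35 tested rows, 22 had a higher mean in P213L and 13 a lower one, with a median log2 fold change of 0.03. Over all tested rows 63.4% were higher, with a median of 0.07. With median-of-ratios scaling 12 members were higher (34.3%) and 23 lower, where 49.1% of all rows were higher. Without WT replicate 3 they were 15 (42.9%) and 20, where 49.6% of all rows were higher. The larger side of the list thus differed between these settings.

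**Figure D1:**
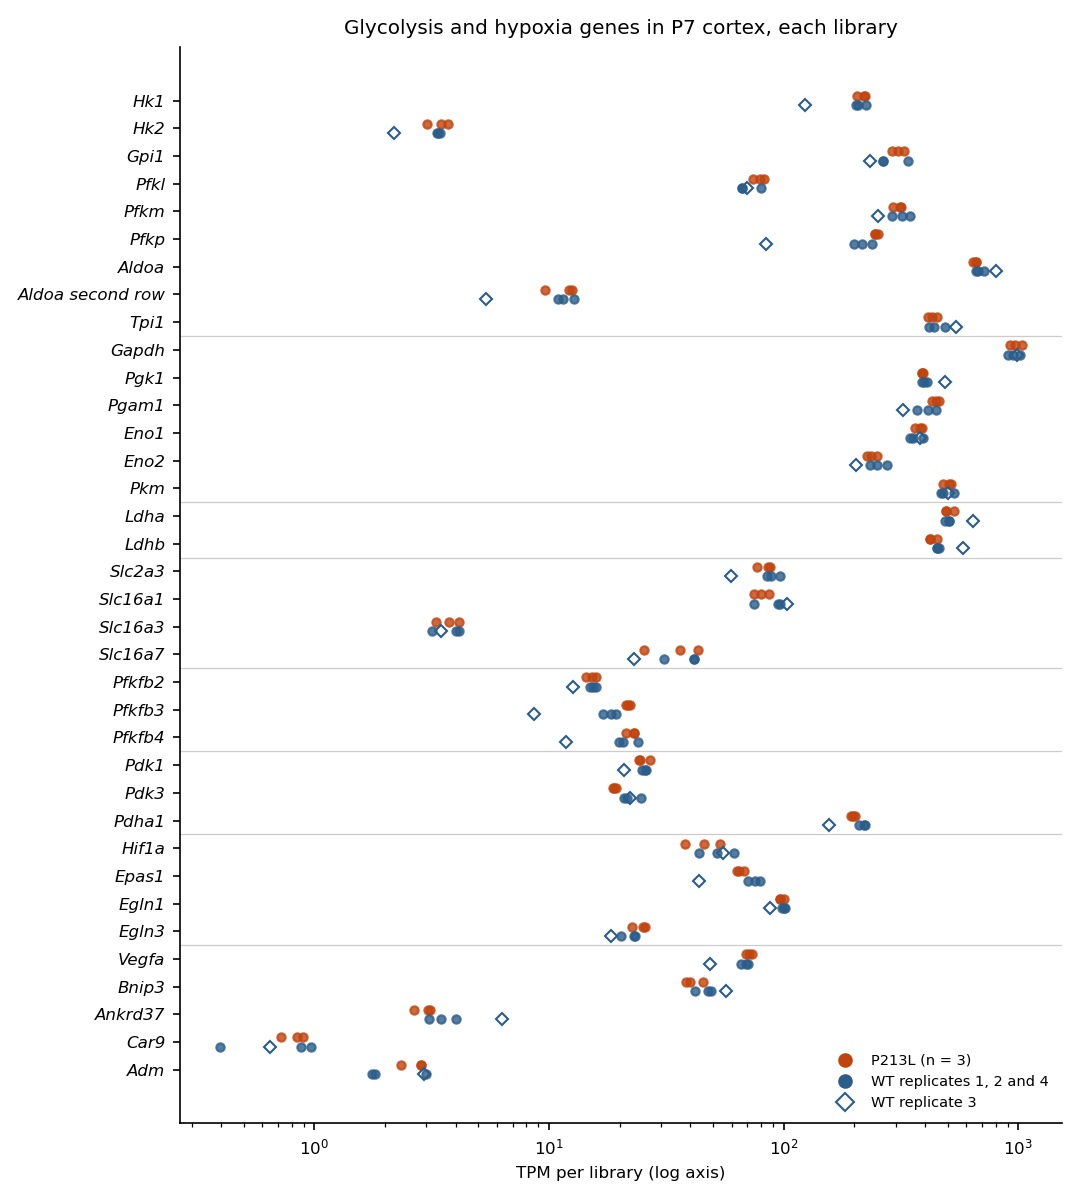
Level of each member in every library, in TPM on a log axis. Rows are genes, grouped by role with grey lines. P213L libraries are the upper points of each row and WT libraries the lower, with WT replicate 3 as an open diamond. Levels run from under 1 TPM for Car9 to 1035 TPM for Gapdh, and the groups overlap for most members, while the diamond is often the point farthest out.

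For 4 of the 35 tested rows (11.4%) the 3 P213L values lay entirely to one side of the 4 WT values, where 8.69% of all tested rows did so. That share is close to the background. The higher ones were Pfkp and Pfkfb3 (5.94% of all rows lay entirely above WT), and the lower ones were Pdk3 and the main row of Aldoa (2.75% lay entirely below).

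Pfkfb3 encodes an enzyme that makes the sugar bisphosphate which activates phosphofructokinase, and it is a known hypoxia target. It stood at 21.3, 22.2 and 21.7 TPM in P213L replicates 1 to 3, against 19.3, 18.4, 8.64 and 16.98 TPM in WT replicates 1 to 4. The P213L values were close together and all above WT, and WT replicate 3 was far below the rest. Expressed as log2, P213L exceeded WT by 0.51 ± 0.26 (SE), with an adjusted p of 0.827 in limma and an exact permutation p of 0.0857. Without WT replicate 3 it was 0.25 ± 0.07 (unadjusted p = 0.00827 and adjusted p = 0.498 in limma). The related genes Pfkfb2 and Pfkfb4, whose enzymes make or break down the same activator, did not separate. Pfkfb4 stood at 22.9, 21.2 and 23.0 TPM in P213L and at 23.8, 20.7, 11.8 and 19.8 TPM in WT, with a log2 fold change of 0.27 ± 0.23 that was 0.06 ± 0.08 without WT replicate 3. Pfkfb2 had 0.05 ± 0.12 (-0.02 without WT replicate 3) and lay between 12.6 and 15.8 TPM in all 7 libraries.

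Pfkp, the platelet-type phosphofructokinase subunit that is abundant in brain, stood at 252, 246 and 244 TPM in P213L, against 238, 198, 84.1 and 215 TPM in WT. Here too the P213L values lay within a narrow band above WT, and WT replicate 3 was the lowest by a wide margin. On the log2 scale the difference was 0.53 ± 0.34 (SE), with an adjusted p of 0.827 in limma and an exact permutation p of 0.171. It was 0.19 ± 0.07 without WT replicate 3 (unadjusted p = 0.0349 and adjusted p = 0.537 in limma). The muscle-type subunit Pfkm was the most abundant of the 3 subunits in TPM, at 315, 292 and 313 TPM in P213L and 344, 289, 251 and 318 TPM in WT, and the groups overlapped (0.04 ± 0.12, and -0.04 without WT replicate 3). The liver-type subunit Pfkl was the least abundant, at 82.6, 74.2 and 79.3 TPM in P213L and 80.2, 66.6, 69.5 and 66.2 TPM in WT, with a log2 fold change of 0.16 ± 0.11 (0.15 ± 0.09 without WT replicate 3). The 3 subunits share one enzyme, so their proportions within a library were compared too. The level of Pfkp relative to Pfkm was 0.799, 0.840 and 0.777 in P213L, against 0.691, 0.686, 0.335 and 0.677 in WT. The ratio was higher in all 3 P213L libraries, and WT replicates 1, 2 and 4 were nearly alike. The difference of the log2 ratios was 0.49 (exact permutation p = 0.114, and 0.400 adjusted over 7 ratios) and 0.23 without WT replicate 3.

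Pdk3 encodes a kinase that switches pyruvate dehydrogenase off. It stood at 18.8, 18.8 and 19.2 TPM in P213L, against 20.9, 24.7, 22.1 and 21.5 TPM in WT. All P213L values lay below WT, and WT replicate 3 lay among the other WT libraries. Its log2 fold change came to -0.23 ± 0.10 (SE), with an adjusted p of 0.827 in limma. The exact permutation p was 0.0286, the smallest that 35 splits can give, and it was not adjusted over the 35 tested rows. Without WT replicate 3 the fold change was -0.23 ± 0.08, so this difference did not move with that library. Pdk1, the kinase of the same family that HIF raises, overlapped, at 24.1, 26.9 and 24.5 TPM in P213L and 24.8, 25.5, 20.8 and 26.0 TPM in WT (0.05 ± 0.12, and -0.02 without WT replicate 3). Pdha1, the subunit that both kinases phosphorylate, stood at 201, 194 and 196 TPM in P213L and at 209, 222, 156 and 220.3 TPM in WT. Its 3 P213L values lay below WT replicates 1, 2 and 4 and above WT replicate 3. A log2 fold change of -0.02 ± 0.14 became -0.14 ± 0.05 without that library (unadjusted p = 0.0342 and adjusted p = 0.537 in limma). Pdk3 and Pdha1 are both on the X chromosome, as is Pgk1.

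**Figure D2:**
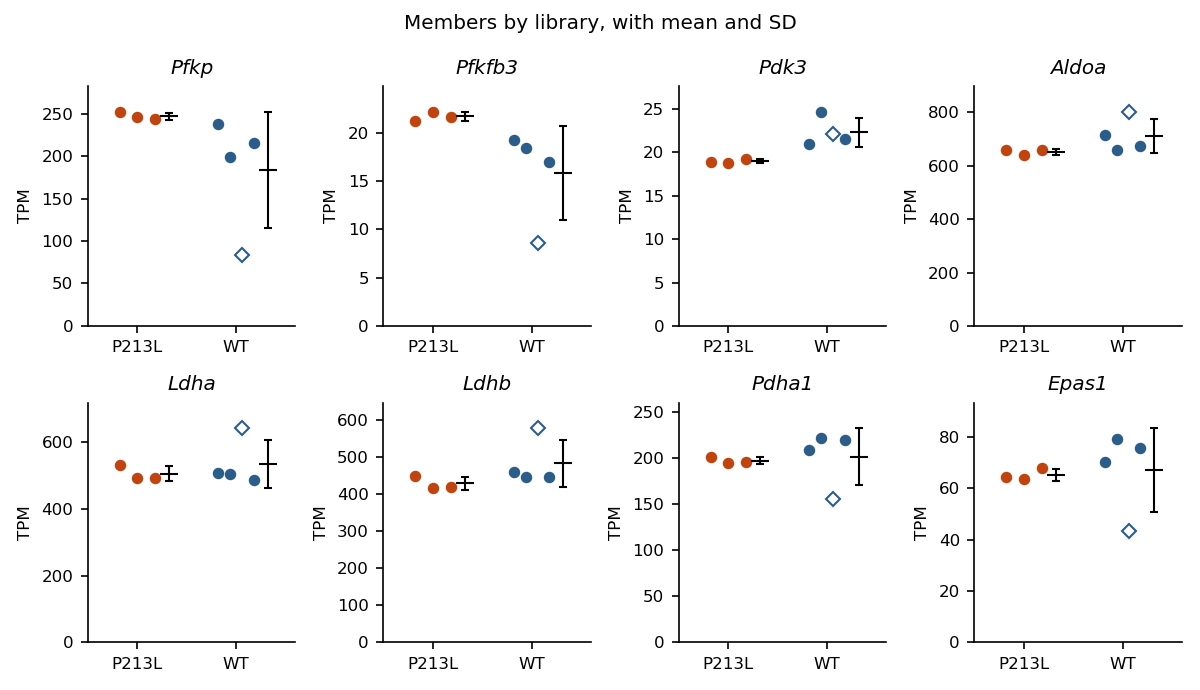
TPM in each library for 8 members, with P213L at the left and WT at the right of each panel. The open diamond is WT replicate 3, and the bar beside each group is its mean with the SD (n = 3 and 4). Pfkp and Pfkfb3 lie above all WT values and Pdk3 and Aldoa below them, while the diamond lies far from the other WT points for 7 of the 8, the exception being Pdk3.

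The promoters of Pfkfb3, Pfkp and Pdk3, and of the lactate dehydrogenase pair described below, are shown because HIF binds DNA at the letters ACGTG or GCGTG. The windows run from 250 bases before to 50 bases after the RefSeq start (GRCm38.p6), printed 5′ to 3′ on the strand of the gene, and capitals mark each match on either strand. A CACGTG counts as 2 matches, since it reads the same on both strands. Pfkfb3 has 2 windows, the upstream at chr2:11553880-11554179, minus strand and the downstream at chr2:11502041-11502340, minus strand. That of Pfkp lies at chr13:6648722-6649021, minus strand, and that of Pdk3 at chrX:93832101-93832400, minus strand.
Pfkfb3 upstream: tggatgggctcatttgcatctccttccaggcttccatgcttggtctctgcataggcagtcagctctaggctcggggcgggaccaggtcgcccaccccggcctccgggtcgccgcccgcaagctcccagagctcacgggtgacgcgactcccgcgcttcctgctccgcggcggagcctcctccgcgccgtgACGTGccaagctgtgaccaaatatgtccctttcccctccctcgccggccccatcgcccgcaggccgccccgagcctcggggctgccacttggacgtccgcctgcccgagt
Pfkfb3 downstream: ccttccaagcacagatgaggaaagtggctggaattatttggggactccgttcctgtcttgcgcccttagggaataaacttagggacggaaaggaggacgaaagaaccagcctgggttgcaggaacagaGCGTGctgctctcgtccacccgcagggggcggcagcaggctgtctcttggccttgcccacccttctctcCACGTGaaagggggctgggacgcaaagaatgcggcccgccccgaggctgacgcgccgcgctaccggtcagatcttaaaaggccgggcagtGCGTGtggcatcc
Pfkp: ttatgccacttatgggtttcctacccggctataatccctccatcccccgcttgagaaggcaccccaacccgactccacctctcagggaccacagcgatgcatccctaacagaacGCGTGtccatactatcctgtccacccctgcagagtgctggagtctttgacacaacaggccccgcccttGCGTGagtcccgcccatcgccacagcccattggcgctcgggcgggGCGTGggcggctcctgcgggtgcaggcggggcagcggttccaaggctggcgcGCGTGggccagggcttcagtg
Pdk3: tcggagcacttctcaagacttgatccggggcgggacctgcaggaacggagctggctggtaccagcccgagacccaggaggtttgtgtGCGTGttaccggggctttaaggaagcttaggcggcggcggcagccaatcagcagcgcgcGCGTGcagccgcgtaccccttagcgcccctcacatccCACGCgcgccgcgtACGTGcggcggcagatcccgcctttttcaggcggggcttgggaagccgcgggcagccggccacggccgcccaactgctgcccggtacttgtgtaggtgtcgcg

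The upstream window of Pfkfb3 held 1 match, and the downstream window held 4. Those of Pfkp and Pdk3 held 4 each. Windows with at least 4 matches were 3.86% of the 32851 in the table and 6.59% of those of tested genes. Such windows were not particular to members that separated. Of members whose groups overlapped, Bnip3, Slc16a1 and Hk1 had a window with 5 matches, and Ankrd37, Pdha1 and Pfkfb2 had one with 4. The other members that overlapped had fewer, except Ldha below. Aldoa, the other member that separated, has 3 windows with 0, 1 and 1 matches, which are not printed because its rows could not be tied to a gene. At least 1 match was found in 38 of the 47 windows of the members (80.9%), which cover 32 of the 35 genes, against 59.7% of the 15145 windows of tested genes and 43.8% of all windows. The motif holds a CG pair, and the median number of CG pairs per window was 20 for members, 19 for tested genes and 7 for all windows. A match is a string of letters, not a binding site, and no binding was measured.

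Lactate dehydrogenase converts pyruvate and lactate into each other, with Ldha encoding the muscle-type subunit and Ldhb the heart-type subunit. Ldha stood at 531, 493 and 491 TPM in P213L, against 506, 504, 641 and 487 TPM in WT. Ldhb stood at 449, 418 and 421 TPM in P213L, against 460.2, 448, 579 and 448 TPM in WT. For both genes WT replicate 3 was the highest library and the other WT values lay close to P213L. The log2 fold changes were -0.07 ± 0.12 for Ldha and -0.16 ± 0.12 for Ldhb (SE), and 0.02 ± 0.06 and -0.07 ± 0.05 without WT replicate 3.

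The level of Ldha relative to Ldhb was 1.18, 1.18 and 1.17 in P213L, against 1.10, 1.13, 1.11 and 1.09 in WT. All 3 P213L libraries lay above all 4 WT libraries, and WT replicate 3 lay within the WT range although it was the highest in both genes. The log2 ratio was 0.23 ± 0.01 in P213L (SD, n = 3) and 0.14 ± 0.02 in WT (SD, n = 4). The difference was 0.09, with an exact permutation p of 0.0286, the smallest possible, which is 0.200 after adjustment over the 7 ratios. It was 0.08 to 0.10 with any 1 library left out. A ratio within a library does not depend on how libraries are scaled. The windows of this pair, at chr7:46845554-46845853, plus strand and chr6:142507908-142508207, minus strand, differ in the number of HIF letters.
Ldha: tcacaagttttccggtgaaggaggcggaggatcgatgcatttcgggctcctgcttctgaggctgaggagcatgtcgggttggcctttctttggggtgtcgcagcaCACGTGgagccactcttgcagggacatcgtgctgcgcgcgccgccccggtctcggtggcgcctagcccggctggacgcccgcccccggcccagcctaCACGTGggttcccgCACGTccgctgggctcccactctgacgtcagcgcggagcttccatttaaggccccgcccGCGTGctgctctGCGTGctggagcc
Ldhb: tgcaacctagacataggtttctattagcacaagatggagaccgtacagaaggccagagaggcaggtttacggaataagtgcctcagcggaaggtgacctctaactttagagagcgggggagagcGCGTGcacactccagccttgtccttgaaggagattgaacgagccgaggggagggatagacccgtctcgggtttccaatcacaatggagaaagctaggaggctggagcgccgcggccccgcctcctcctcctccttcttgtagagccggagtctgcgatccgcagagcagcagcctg

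The upstream of the 2 Ldha windows, printed above, held 7 matches, the downstream held 2, and the only Ldhb window held 1. At least 7 were found in 0.301% of all windows and in 0.462% of those of tested genes. Counts differed within other pairs too. The highest count of any window was 4 for Pfkp and 3 for Pfkm, 5 for Hk1 and 2 for Hk2, and 2 for Eno1 and 0 for Eno2. The bearing of these counts on any ratio was not tested. The rows of annotated pseudogenes of Ldha and Ldhb were low, with a mean of 1.29 TPM for Ldha-ps2 and 0.469 TPM for Ldhb-ps. Ldha-ps2 stood at 1.70, 1.85 and 1.54 TPM in P213L, against 1.35, 1.19, 0.208 and 1.17 TPM in WT. Its P213L values lay entirely above WT, as did 5.94% of all tested rows, and Ldhb-ps overlapped. Reads shared with such copies leave these values uncertain, and their part in the Ldha over Ldhb ratio was not tested.

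**Figure D3:**
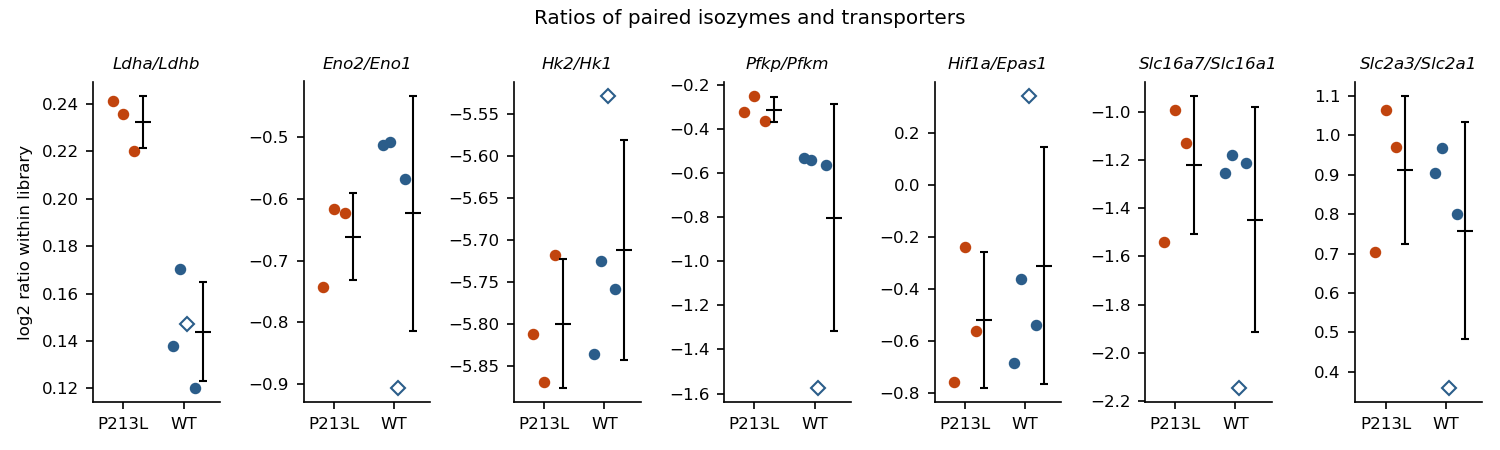
Log2 ratio of 2 genes within each library for 7 fixed pairs, with P213L at the left and WT at the right of each panel. Bars give the mean and SD (n = 3 and 4), the open diamond is WT replicate 3, and each panel has its own axis. The groups do not overlap for Ldha over Ldhb and for Pfkp over Pfkm, and do overlap for the other 5 pairs.

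None of the enzymes at the entry of the pathway passed the test. Hk1, the hexokinase of brain that binds mitochondria, stood at 222, 205 and 221 TPM in P213L, against 223, 203, 123 and 207 TPM in WT. Its log2 fold change of 0.23 ± 0.20 was 0.03 ± 0.06 without WT replicate 3, which alone was low. Hk2, the hexokinase that hypoxia and insulin raise, was far less abundant, at 3.46, 3.02 and 3.70 TPM in P213L and 3.42, 3.35, 2.19 and 3.33 TPM in WT (0.14 ± 0.18, and 0.0061 without WT replicate 3). The log2 ratio of Hk2 to Hk1 was -5.80 ± 0.08 in P213L and -5.71 ± 0.13 in WT (SD, n = 3 and 4; exact permutation p = 0.429, adjusted 0.733). Gpi1, the isomerase that follows, stood at 305, 289 and 326 TPM in P213L and 339.8, 264, 234 and 264 TPM in WT, with a log2 fold change of 0.17 ± 0.14 (0.09 without WT replicate 3).

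Aldolase and triosephosphate isomerase split and interconvert the sugar phosphates. The main row of Aldoa, the aldolase of muscle and brain, stood at 657, 639 and 657 TPM in P213L, against 713, 661, 802 and 673 TPM in WT. The P213L values lay below WT by a narrow gap, with a log2 fold change of -0.13 ± 0.10 (exact permutation p = 0.143). Without WT replicate 3 it was -0.07 ± 0.06. The second row of that symbol ran from 5.40 to 12.7 TPM over the 7 libraries (0.23 ± 0.28, and -0.03 without WT replicate 3). GENCODE vM21 has 2 adjacent genes of this name on chromosome 7, and the table does not say which row is which. Tpi1 had a log2 fold change of -0.12 ± 0.12 (-0.05 without WT replicate 3), and P213L (413 to 448 TPM) overlapped WT (415 to 541 TPM).

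The later steps, from glyceraldehyde phosphate to pyruvate, gave log2 fold changes between -0.10 and 0.21. Gapdh, its first enzyme and a gene often used to standardise other measurements, stood at 1035, 925 and 964 TPM in P213L, against 952, 904, 990.2 and 1016 TPM in WT. The groups overlapped, and the log2 fold change was 0.01 ± 0.09 (0.03 without WT replicate 3). Pkm, which encodes pyruvate kinase, had 0.01 ± 0.09 with 475 to 515 TPM in P213L and 467 to 534 TPM in WT. The M1 and M2 splice forms of Pkm are not separated in a table of genes. Pgk1, which makes the first ATP of the pathway, stood at 387, 389 and 390.5 TPM in P213L, against 407, 395, 487 and 388 TPM in WT, so P213L lay at the low end of the WT range (-0.10 ± 0.11, and -0.03 without WT replicate 3). Pgam1, the mutase that follows it, stood at 459, 430.1 and 443 TPM in P213L, against 370.1, 412, 321 and 446 TPM in WT. Its log2 fold change of 0.21 ± 0.13 was 0.12 ± 0.08 without WT replicate 3, and the top WT library lay within the P213L range. With median-of-ratios scaling Gapdh and Pkm both came to -0.07, so the sign of values this small follows the scaling.

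Enolase has a ubiquitous form, Eno1, and a neuronal form, Eno2. Eno1 stood at 363 to 386 TPM in P213L and 344 to 392 TPM in WT. Eno2 stood at 227, 236 and 251 TPM in P213L, against 275, 250.4, 202 and 232 TPM in WT (-0.0031 ± 0.12, and -0.08 without WT replicate 3). The level of Eno2 relative to Eno1 was 0.597, 0.652 and 0.649 in P213L, against 0.7001, 0.703, 0.533 and 0.674 in WT. All 3 P213L ratios lay below WT replicates 1, 2 and 4 and above WT replicate 3. The log2 ratio differed by -0.04 (exact permutation p = 0.771) and by -0.13 without WT replicate 3, where 3 against 3 samples cannot give a p below 0.10. The pseudogene or retrogene rows named after these abundant enzymes stayed at or below a mean of 2.47 TPM (Pgam1-ps2), with Eno1b at 0.608 TPM.

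No transporter of glucose or lactate passed the test. Slc2a3, the glucose transporter of neurons, stood at 76.9, 87.7 and 85.4 TPM in P213L, against 84.7, 96.2, 59.4 and 87.8 TPM in WT (0.04 ± 0.17, and -0.10 without WT replicate 3). Slc16a1, the lactate transporter of endothelium and glia, stood at 75.0, 86.4 and 79.9 TPM in P213L and at 74.7, 94.2, 103 and 96.6 TPM in WT. A log2 fold change of -0.19 ± 0.13 stayed between -0.28 and -0.13 under every alternative. Slc16a7, the transporter with high affinity that neurons use, was the most variable member within P213L. It stood at 25.5, 43.2 and 36.2 TPM there, against 31.0, 41.3, 22.9 and 41.4 TPM in WT (0.04 ± 0.26, and -0.14 without WT replicate 3). Slc16a3, the transporter of lactate-exporting cells, lay between 3.18 and 4.14 TPM in all libraries (0.01 ± 0.15, and -0.01 without WT replicate 3). Slc2a1, the transporter of the blood-brain barrier and not a member, stood at 47.0, 41.7 and 43.4 TPM in P213L and 45.0, 48.9, 46.2 and 50.2 TPM in WT. The log2 ratio of Slc2a3 to Slc2a1 differed by 0.15 and that of Slc16a7 to Slc16a1 by 0.23 (exact permutation p = 0.486 and 0.629, both 0.733 adjusted). Without WT replicate 3 these differences were 0.02 and -0.0049.

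**Figure D4:**
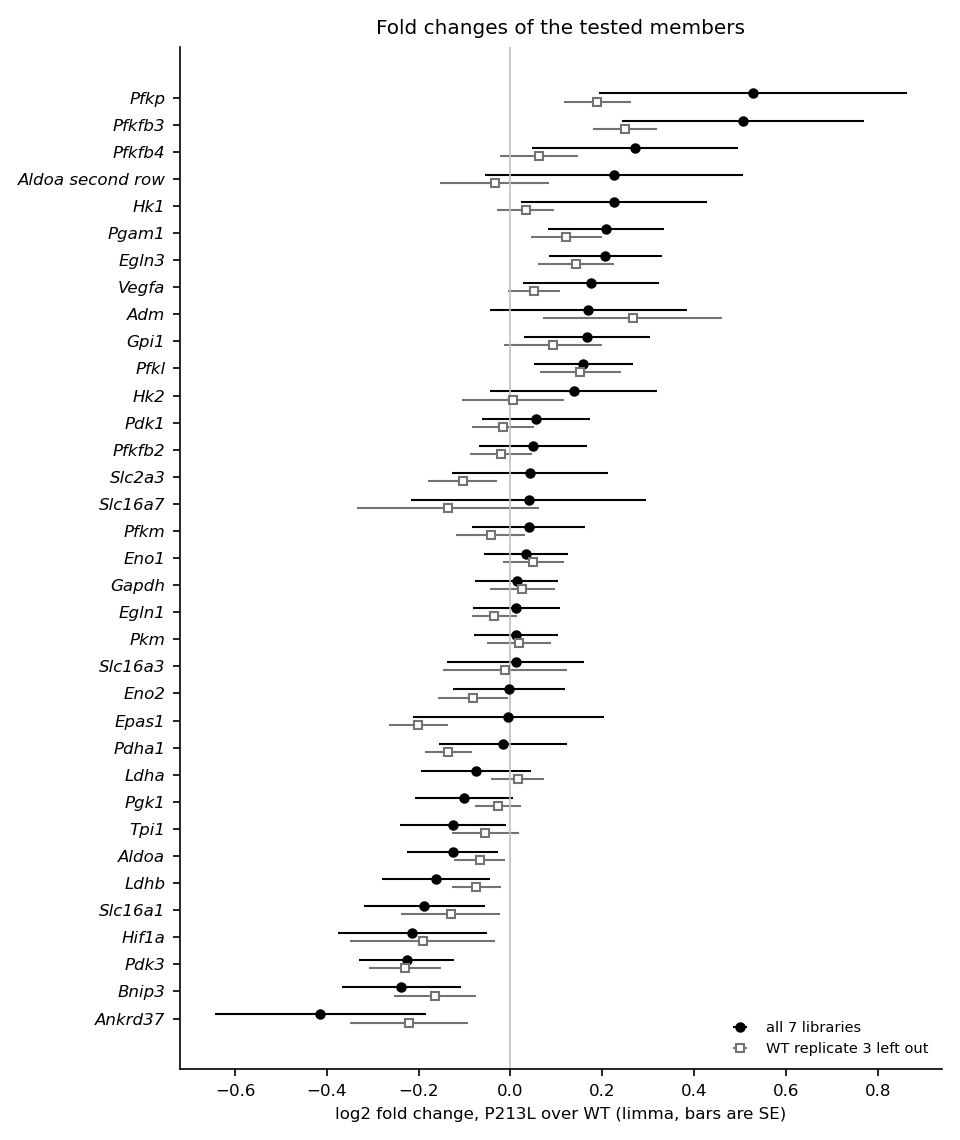
Log2 fold change of each tested row, P213L over WT, ordered from highest to lowest. Filled circles are the fit on all 7 libraries and open squares the fit without WT replicate 3, and bars are the SE from limma. The squares lie nearer to 0 than the circles for Pfkp, Pfkfb3 and Ankrd37, lie in the same place for Pdk3, and lie farther below 0 for Epas1 and Pdha1.

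HIF is made of an oxygen-regulated alpha subunit and a constant partner. Hif1a, the alpha subunit found in most cells, stood at 37.8, 53.7 and 45.8 TPM in P213L, against 43.6, 61.6, 55.1 and 51.9 TPM in WT, and the groups overlapped (-0.21 ± 0.16). Epas1, the alpha subunit of endothelium and astrocytes, stood at 64.3, 63.5 and 67.9 TPM in P213L, against 70.3, 79.3, 43.4 and 75.6 TPM in WT. Its P213L values lay below 3 of the 4 WT values and above WT replicate 3. Its log2 fold change of -0.0046 ± 0.21 became -0.20 ± 0.06 without that library (unadjusted p = 0.0162 and adjusted p = 0.516 in limma). The log2 ratio of Hif1a to Epas1 was -0.52 ± 0.26 in P213L and -0.31 ± 0.46 in WT (SD, n = 3 and 4; exact permutation p = 0.600, adjusted 0.733), and it differed by 0.0088 without WT replicate 3. HIF activity is controlled through the stability of the protein, which RNA does not report.

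The prolyl hydroxylases that mark HIF for destruction are themselves HIF targets. Egln1, the main oxygen sensor, stood at 100.1, 96.7 and 96.8 TPM in P213L, against 102, 100.5, 87.7 and 98.6 TPM in WT (0.01 ± 0.10, and -0.03 without WT replicate 3). Egln3, the isoform that hypoxia raises most, stood at 25.1, 25.6 and 22.6 TPM in P213L, against 23.2, 22.9, 18.4 and 20.2 TPM in WT. On the log2 scale P213L was higher by 0.21 ± 0.12, with the lowest P213L library below the highest WT libraries.

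The 5 members that serve here as readouts of hypoxia had means on both sides of WT, and the 4 that could be tested did not pass. Vegfa, the growth factor of blood vessels, stood at 73.3, 70.8 and 68.8 TPM in P213L, against 70.2, 65.9, 48.3 and 69.4 TPM in WT (0.18 ± 0.15, and 0.05 ± 0.06 without WT replicate 3). Bnip3, which sends mitochondria to autophagy, stood at 38.2, 45.3 and 39.9 TPM in P213L, against 42.0, 47.7, 56.7 and 48.8 TPM in WT. Its log2 fold change of -0.24 ± 0.13 kept its sign under every alternative, between -0.32 and -0.16. Ankrd37, a small target of HIF, stood at 3.10, 3.05 and 2.64 TPM in P213L and 3.45, 3.99, 6.32 and 3.09 TPM in WT. It had the lowest fold change of the members (-0.41 ± 0.23), which was -0.22 ± 0.13 without WT replicate 3, and the lowest WT value lay just inside the P213L range. Adm, a peptide that widens vessels, stood at 2.33, 2.85 and 2.84 TPM in P213L and at 1.81, 2.98, 2.94 and 1.76 TPM in WT (0.17 ± 0.21, and 0.27 without WT replicate 3). Car9 stood at 0.891, 0.722 and 0.842 TPM in P213L and at 0.962, 0.396, 0.644 and 0.876 TPM in WT, too low to be tested.

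Among other genes of these pathways 0 passed adjustment in limma, and 1, Ndrg1, was past an unadjusted p of 0.05. It was 1 of the 34 tested other hypoxia targets, and no other pathway list held such a gene. Over all tested rows 0% passed adjustment and 3.74% the unadjusted threshold, so these lists held no excess of calls. Of 15 tested further glycolysis enzymes 7 were higher and 8 lower, with a median log2 fold change of -0.07, and 5 and 10 without WT replicate 3, with -0.04. The largest of them in TPM was Aldoc, the aldolase of astrocytes, at 276, 247 and 268 TPM in P213L, against 293, 302, 280.2 and 326 TPM in WT (-0.19 ± 0.10). All its P213L values lay below WT. Pgam2, the mutase of muscle (-0.19 ± 0.10), lay entirely below WT too, and Hkdc1, a hexokinase-like gene (-0.45 ± 0.20, and -0.61 without WT replicate 3), overlapped. The 18 rows of this list summed to 507 to 538 TPM in P213L and 559.7 to 593 TPM in WT without overlap. Aldoc made up about 276 of 538 TPM in P213L replicate 1. Markers of astrocytes, where Aldoc is expressed, summed to 1256 to 1332 TPM in P213L and 920 to 1560 TPM in WT, or 1355 to 1560 TPM without WT replicate 3. Their part in the result was not tested.

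Of the 17 genes of glucose transport and glycogen, 9 were higher and 8 lower (median 0.003), and 7 and 10 without WT replicate 3 (median -0.04). The smallest unadjusted p belonged to Gys1, glycogen synthase (0.32 ± 0.20, and 0.15 without WT replicate 3), and Gbe1, the branching enzyme (-0.18 ± 0.12). Of 12 further genes of pyruvate dehydrogenase and pyruvate entry, 6 were higher and 6 lower (median -0.02), and 4 and 8 without WT replicate 3 (median -0.03). Dld, a shared subunit, was at -0.23 ± 0.16, and at -0.13 without that library. Of 20 genes of the tricarboxylic acid cycle, 6 were higher and 14 lower (median -0.05), where 36.6% of all tested rows were lower. Without WT replicate 3 they were 5 and 15 (median -0.04), where 8860 of all 17582 rows were lower. Mdh1, the cytosolic malate dehydrogenase, stood at 477, 465 and 477 TPM in P213L, against 507, 507, 799 and 498 TPM in WT (-0.26 ± 0.18, and -0.09 without WT replicate 3). The pentose phosphate pathway had 6 of 10 higher (median 0.03), with and without WT replicate 3, and G6pdx, its first enzyme, was at 0.20 ± 0.15, and at 0.07 without it. Regulators of HIF had 7 of 12 higher (median 0.07), and 6 of 12 without WT replicate 3 (median 0.0028). The 3 with the smallest p were Cited2, which competes for the cofactor of HIF (0.22 ± 0.12, and 0.13 without WT replicate 3), Eloc, a subunit of the ligase that marks HIF for destruction (-0.29 ± 0.19, and -0.15), and Hif1an, which blocks the activity of HIF (0.35 ± 0.25, and 0.11). The other hypoxia targets had 19 of 34 higher (median 0.01), and 15 of 34 without WT replicate 3 (median -0.06).

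Among those targets Ndrg1, a stress gene that is also strongly expressed in oligodendrocytes, had the smallest unadjusted p. It stood at 26.4, 25.8 and 27.0 TPM in P213L, against 22.1, 20.4, 22.2 and 20.1 TPM in WT, and all P213L values lay above WT. The log2 fold change was 0.31 ± 0.10, and 0.33 without WT replicate 3 (unadjusted p = 0.0134 with all libraries and adjusted p = 0.827 in limma). Ak4, an adenylate kinase of mitochondria (0.27 ± 0.12), also lay entirely above WT. Higd1a, a mitochondrial protein (-0.27 ± 0.15, and -0.14 without WT replicate 3), lay entirely below. Of the 34 tested targets, 3 lay entirely above WT and 2 entirely below, where 5.94% and 2.75% of all tested rows did so.

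WT replicate 3 lay outside the other libraries for most members. It was the lowest of the 7 libraries for 19 of the 35 tested rows and the highest for 8, together 77.1%. Over all tested rows it was the lowest for 55.0% and the highest for 21.6%, together 76.7%. Its difference from the mean of the other 3 WT libraries was -1.36 for Pfkp (exons of 13401 bases in GENCODE vM21), -1.03 for Pfkfb3 (7561 bases), -0.83 for Pfkfb4 (4875 bases), -0.78 for Epas1 (5590 bases) and -0.77 for Hk1 (8532 bases) on the log2 scale. It was 0.77 for Ankrd37 (1539 bases), 0.39 for Adm (1619 bases), 0.36 for Ldhb (1570 bases) and for Ldha (3310 bases), and 0.30 for Bnip3 (2265 bases). Over the 33 tested members with a length, Spearman's rho between length and this difference was -0.66, and over 16594 tested rows it was -0.39. In the other 6 libraries rho over the members ran from -0.27 to 0.34. These are correlations across genes of shared libraries, which are not independent replicates, and the part of length in these values was not tested.

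**Figure D5:**
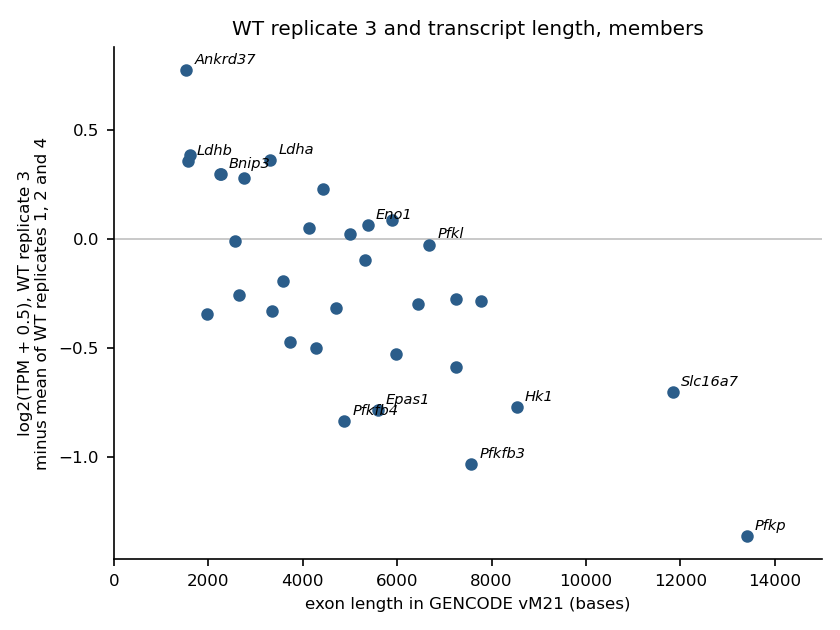
Difference of WT replicate 3 from the mean of WT replicates 1, 2 and 4, in log2(TPM + 0.5), against exon length in bases, for the 33 tested members with a length. Each point is 1 gene. Ankrd37 (1539 bases) lies at 0.77, and Pfkp (13401 bases) and Pfkfb3 (7561 bases) lie more than 1 below 0, while Pgam1 (1982 bases) lies at -0.35 and Pdk3 (2561 bases) at -0.01.

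Without WT replicate 3, 5 of the 35 rows (14.3%) were past an unadjusted p of 0.05, namely Pfkfb3 and Pfkp higher, and Epas1, Pdk3 and Pdha1 lower. In that fit 8.69% of all tested rows were past it and 0% passed adjustment. Pdha1 and Epas1 then lay entirely below WT, and Aldoa, Pdk3, Pfkp and Pfkfb3 kept their place. Of all rows, 7.33% then lay entirely above WT and 6.89% entirely below. By direction, 4.70% of all rows were higher and 3.99% lower at that threshold.

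Markers of the cell types in cortex gave 0 adjusted calls in each list (limma). Of 13 endothelial markers 8 were higher and 5 lower (5 and 8 without WT replicate 3), and they summed to 505 to 516 TPM in P213L and 486 to 619 TPM in WT. Of 8 tested markers of pericytes and smooth muscle 2 were higher and 6 lower, with and without that library (296 to 315 TPM in P213L and 294 to 332 TPM in WT). Neuronal markers were higher for 6 of 10, and for 2 of 10 without WT replicate 3 (6335 to 6657 TPM in P213L and 6072 to 6688 TPM in WT). Astrocyte markers were higher for 7 of 11, and for 2 of 11 without WT replicate 3 (median -0.13). Cortical identity genes were higher for 10 of 11, and for 5 of 11 without it. Oligodendrocyte markers were lower for 6 of 10 (8 of 10 without WT replicate 3) and summed to 406 to 434 TPM in P213L and 452 to 509 TPM in WT without overlap. Microglial markers were lower for 9 of 9 (8 of 9 without WT replicate 3) and summed to 301 to 314 TPM in P213L and 315 to 379 TPM in WT, also without overlap. Of 6 tested erythroid genes 4 were lower, and 3 without WT replicate 3 (945 to 1069 TPM in P213L and 910.2 to 1646 TPM in WT). Meningeal markers were higher for 7 of 9, and for 8 of 9 without WT replicate 3 (218 to 280.3 TPM in P213L and 131 to 225 TPM in WT). Of 6 tested choroid plexus markers 5 were lower, and 6 without WT replicate 3 (9.10 to 10.8 TPM in P213L and 5.63 to 1253 TPM in WT), and the top value was WT replicate 2, where Ttr stood at 1216 TPM. No marker was at 0 in every library. The part of these cell types in the values of the members was not tested.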

How the data were processed

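Per the labels' protocols, total RNA of fresh cortex was taken with TRIzol and the libraries were stranded and made from mRNA. The submitters' processing notes name HISAT2, HTSeq and mm10. Versions, annotation, gene lengths and how multiply matching reads were handled: not given in the sources used here. Values are deposited as TPM, per the file headers, 1 column per sample, each summing to 1000000. Symbols on more than 1 row (147) were kept as separate rows.

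Values were tested as log2(TPM + 0.5) for rows with a mean of at least 1 TPM with limma 3.58.1 in R 4.3.3 (mean-variance trend, two-sided, Benjamini-Hochberg over 17582 rows, threshold 0.05). Ratios and single values were tested by exact permutation over all 35 splits, two-sided. Members, lists and tests were chosen with earlier results of these data known. All members are named, and from each other pathway list up to 4 genes with the smallest p, of which some are not reported here. Exon lengths and gene positions come from GENCODE vM21 (mm10), and promoters from RefSeq (GRCm38.p6). Depth was estimated from TPM times length, taking the most frequent low value as 1 unit. Of the low values 95.1 to 96.1% lay within 0.05 of a multiple of 0.5 units. The alternatives were other pseudocounts, filters, scalings and variance models, sample weights, a replicate block and leaving out each library. Median-of-ratios scaling without WT replicate 3 was chosen after seeing the data.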

Additional observations from a re-analysis of the deposited data

Results flagged for a closer look

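An outlying WT sample was looked for in 42 measures, the 35 tested rows and the 7 ratios, and chance flags about 1 in 20 groups of 4. There were 8, and all 8 were in WT replicate 3. The measures share the same 4 WT libraries, and the ratios reuse genes of the tested rows, so the measures are not independent. The count can therefore not be held against 1 in 20. Over all tested rows WT replicate 3 was the lowest or the highest of the 7 libraries for 76.7%. On the log2(TPM + 0.5) scale this library lay far below the other 3 WT libraries for Hk1 (6.95), Hk2 (1.43) and Pfkfb3 (3.19), and far above them for Ldha (9.32) and Ldhb (9.18). Its log2 ratio was far below those of the other WT libraries for Eno2 over Eno1 (-0.91), Pfkp over Pfkm (-1.57) and Slc16a7 over Slc16a1 (-2.14). Groups of 3 such as P213L were not examined in this way.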

How the results depend on the processing

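Rows past an adjusted p of 0.05 in limma numbered 0 under all alternatives except sample weights, which gave 3981. Rows at an unadjusted p under 0.05 numbered 657, and 1836 without a filter, 361 with a mean of at least 5 TPM, 6969 with sample weights, 1523 with median-of-ratios scaling and WT replicate 3 left out, and 266 to 1574 with 1 library left out. Members at that threshold numbered 0, and 1 (Pdk3) without a filter, with median-of-ratios scaling, with equal quantiles or with mitochondrial rows removed, 14 with sample weights, 5 with median-of-ratios scaling and WT replicate 3 left out, and 0 to 5 with 1 library left out, the exceptions to 0 being WT replicate 3 (5 members) and WT replicate 1 (3 members: Bnip3, Gpi1 and Slc16a1). With sample weights, 14 of 35 member rows and 6969 of all 17582 rows are similar shares. The members split 22 higher and 13 lower, 12 and 23 with median-of-ratios scaling, 15 and 20 with that scaling and WT replicate 3 left out, and 15 to 25 higher and 10 to 20 lower with 1 library left out. Of the 35 fold changes, 19 kept their sign under all 19 alternatives, and the 16 others were at most 0.23 in size. Where the sign of a log2 fold change turned, its value follows. With median-of-ratios scaling it was -0.045 for Pfkm, -0.071 for Gapdh, -0.050 for Eno1, -0.072 for Pkm, -0.042 for Slc2a3, -0.063 for Slc16a3, -0.043 for Slc16a7, -0.034 for Pfkfb2, -0.028 for Pdk1 and -0.071 for Egln1. With that scaling and WT replicate 3 left out it was -0.045 for Pfkm, -0.036 for the second row of Aldoa, 0.014 for Ldha, -0.11 for Slc2a3, -0.014 for Slc16a3, -0.14 for Slc16a7, -0.022 for Pfkfb2, -0.018 for Pdk1 and -0.037 for Egln1. With quantiles made equal it was -0.087 for Slc16a3, -0.047 for Slc16a7, -0.060 for Pfkfb2, -0.037 for Pdk1 and -0.011 for Egln1. With mitochondrial rows removed it was -0.013 for Gapdh, -0.014 for Pkm, -0.012 for Slc16a3 and -0.013 for Egln1. With sample weights it was -0.012 for Pfkm, 0.056 for Tpi1, -0.036 for Gapdh, 0.051 for Eno2, 0.0093 for Ldha, -0.069 for Slc2a3, -0.18 for Slc16a7, -0.015 for Pfkfb2, -0.059 for Pdk1 and -0.028 for Egln1. With a replicate block it was -0.014 for Pkm, -0.050 for Slc16a3, 0.030 for Pdha1 and 0.064 for Epas1. With 1 library left out it ran from -0.043 to 0.11 for Pfkm, -0.035 to 0.35 for the second row of Aldoa, -0.031 to 0.050 for Gapdh, -0.082 to 0.065 for Eno2, -0.014 to 0.050 for Pkm, -0.12 to 0.015 for Ldha, -0.10 to 0.13 for Slc2a3, -0.059 to 0.085 for Slc16a3, -0.14 to 0.25 for Slc16a7, -0.020 to 0.083 for Pfkfb2, -0.016 to 0.088 for Pdk1, -0.14 to 0.033 for Pdha1, -0.20 to 0.087 for Epas1 and -0.035 to 0.036 for Egln1. The difference of the log2 ratio ran from -0.13 to 0.0036 for Eno2 over Eno1, from -0.35 to 0.0088 for Hif1a over Epas1 and from -0.0049 to 0.39 for Slc16a7 over Slc16a1 with 1 library left out. The cause of these turns was not tested. No ratio passed adjustment, and the smallest p possible with 1 library left out is 0.0667 or 0.10.

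Whether the replicate numbers pair the samples is not known. The deviations of same-numbered libraries correlated at 0.13, 0.17 and -0.10, and those of other pairs of libraries at -0.24 to 0.12. Deviations within groups this small cannot decide it. With a replicate block, in which WT replicate 4 has no partner and adds nothing to the difference, 500 rows were past an unadjusted p of 0.05 and 0 past adjustment in limma, and the difference of the Ldha over Ldhb log2 ratio was 0.08. Depth limits the members near 1 TPM, Car9 first.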
